A study of Mus musculus with 25 samples.

Results

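The Wnt ligands, their receptors, their secreted antagonists and 2 readout genes were followed in mouse podocytes, the cells whose foot processes cover the capillaries of the glomerulus. The set held every gene with a Wnt, Fzd, Dkk or Sfrp symbol and a number, plus Lrp5, Lrp6, Wif1, Axin2 and Lef1. It came to 41 of the 17097 named genes on the array: 19 ligands, 12 receptors, 8 antagonists, and Axin2 and Lef1. Each gene was read from 1 probe set, the brightest on average over all 25 arrays among those with a single gene symbol. The rule for the genes uses their symbols and no level or difference, but the set was chosen with earlier results of these data known. No probe set with a single symbol was found for Sfrp4, which is not analysed here.

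The study purified polysomal RNA by translating ribosome affinity purification (TRAP) from mice that carry the Col1a1-eGFPL10a transgene, in which a ribosomal protein fused to a green fluorescent protein is expressed behind a collagen promoter. These mice, of mixed C57 and 129sv strain, were crossed with carriers of the Actn4 tm1.1Plk allele, a knock-in (KI) of the gene for the actin crosslinker alpha-actinin-4. KI podocytes gave 4 arrays at 2 weeks, 4 at 5 weeks and 4 at 44 weeks of age, and wild-type (WT) podocytes gave 4, 5 and 4 arrays at the same ages; all 6 groups carried the transgene. The labels do not say whether KI mice had 1 or 2 copies of the allele, nor whether each array came from its own mouse, so that p-values reflect the spread among these arrays, which may be technical. The values are log2 intensities as the authors deposited them, given below in ascending array number, with KI arrays 19 to 22, 23 to 26 and 31 to 34 and WT arrays 1, 2, 3 and 5, 6 to 10 and 15 to 18 at the 3 ages; a difference of 1 is a doubling or halving.

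Wnt proteins are secreted lipid-modified ligands. They bind Frizzled (Fzd) receptors, and with the co-receptors Lrp5 or Lrp6 they stabilise beta-catenin, which enters the nucleus and acts with Tcf and Lef factors on target genes such as Axin2. Other Wnt proteins, Wnt5a among them, act largely without beta-catenin on cell polarity and movement. Sfrp proteins and Wif1 bind the ligand, and Dkk1, Dkk2 and Dkk4 block Lrp5 and Lrp6. In the kidney the pathway drives nephron formation before birth, and beta-catenin activity in adult podocytes is linked to albuminuria in mice.

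The purified RNA held podocyte transcripts at high level and transcripts of other kidney cells too. The 12 podocyte markers measured of 16 listed averaged 10.78 to 11.63 over the arrays. The proximal tubule markers averaged 9.21 to 10.52 on KI arrays and 8.52 to 10.62 on WT arrays. The fibroblast markers averaged 5.42 to 7.52 on KI arrays and 5.36 to 7.94 on WT arrays. The mean of 3 Y-linked genes split the arrays into high (7.26 to 8.39) and low (2.89 to 3.69): at 2 weeks 1 of 4 KI and 4 of 4 WT arrays were high, at 5 weeks 3 of 4 KI and 2 of 5 WT arrays, and at 44 weeks 3 of 4 KI and 1 of 4 WT arrays. With that mean as a covariate, 28 of the 38 calls given below were kept and 10 were lost. Actn4 is not analysed here, so the genotype labels were not checked on the targeted gene. The number of arrays limits the precision, with a median standard error of a KI minus WT difference of 0.17 at 5 weeks and 0.18 at 2 and 44 weeks.

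Of the 41 genes, 24 passed the filter that left out the dimmest 30% of genes (mean below 4.60). They were 8 ligands, 10 receptors, 5 antagonists and Axin2. The brightest ligands were Wnt5b, Wnt5a and Wnt16, with means over all arrays of 7.67, 6.42 and 5.74. The brightest receptors were Fzd2, Fzd7 and Fzd5, at 9.50, 7.99 and 7.06, and the brightest antagonists were Sfrp1, Dkk3 and Wif1, at 9.36, 8.90 and 7.00. Fzd2 stood at the 82.7th percentile of all genes, Sfrp1 at the 81.4th and Dkk3 at the 76.3rd; probe sets differ in how strongly they respond, so this is a rank of signals and not of transcript numbers.

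The 17 dim genes were Wnt1, Wnt2, Wnt2b, Wnt3, Wnt3a, Wnt7a, Wnt7b, Wnt8a, Wnt10a, Wnt10b and Wnt11 among the ligands, Fzd9 and Fzd10 among the receptors, Dkk1, Dkk4 and Sfrp5 among the antagonists, and Lef1, the nuclear partner of beta-catenin. Their means over all arrays ran from 2.99 to 4.52. Their group means ran from 2.92 for Wnt3 to 4.64 for Wnt3a. The files used here hold no call of presence or absence, so these genes are described as dim and no more. In a fit of all genes with no filter, Wnt2 passed in KI minus WT at 5 weeks, at -0.37 ± 0.11 (SE, limma adjusted p = 0.0295). Wnt2, Wnt7b and Dkk1 passed in 1 or more of the age comparisons there, with differences between -0.43 and 0.33, and the other 14 passed in none. The share of all genes that passed in this fit is not given here, so these counts are not read as few or many.

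**Figure D1:**
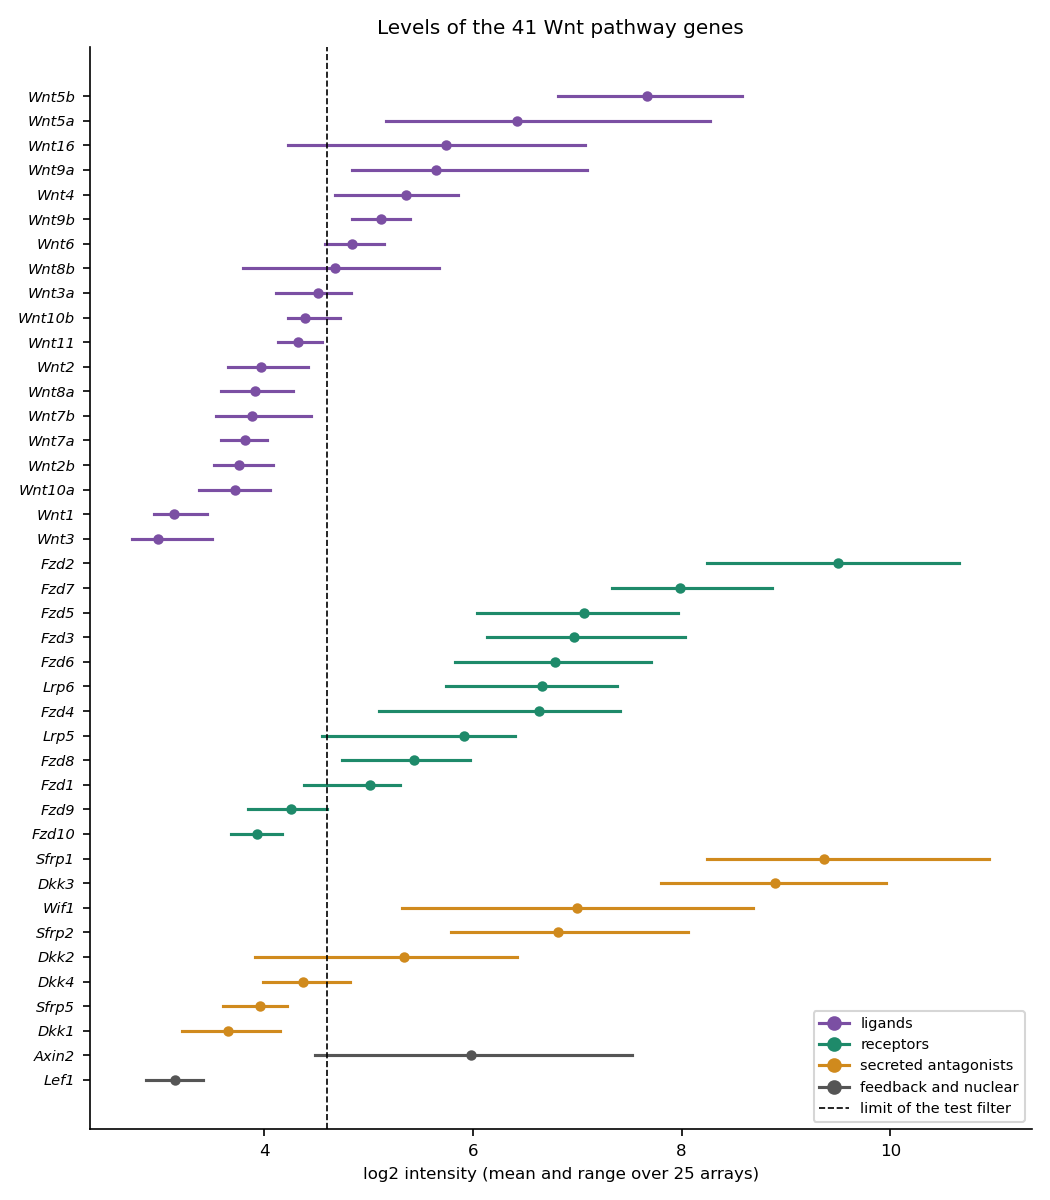
Log2 intensity (horizontal axis) of the 41 genes, in order of role and brightness; points are means and lines the range over 25 arrays, and the dashed line is the limit of 4.60 below which a mean was not tested. Fzd2, Sfrp1 and Dkk3 are brightest, and the 17 dim genes lie left of the line.

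The question of the knock-in was addressed by KI minus WT at each age. At 2 weeks no gene of the set passed (limma, 0 of 24, against 0% of the 11968 genes tested). Of the set 0 had an unadjusted p under 0.05 (613 of all genes tested), and 0 had KI and WT arrays that did not overlap (2.9% of all genes). At 5 weeks 3 of 24 passed, when 22% of all genes did: Lrp6 and Lrp5 were higher in KI podocytes (14.3% of all genes) and Dkk3 was lower (7.75%). At 44 weeks none passed (limma, 0 of 24), when 0.0251% of all genes did, 0.0167% higher and 0.00836% lower. Of the set 1 gene, Fzd2, had an unadjusted p under 0.05, as had 762 of the 11968 genes tested. Averaged over the ages, Fzd2 was lower in KI podocytes (1.33% of all genes) and no gene of the set was higher (3.99%), when 5.32% of all genes passed.

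The median KI minus WT difference of the 24 genes was -0.11 at 2 weeks, -0.09 at 5 weeks and -0.10 at 44 weeks. Over all genes tested it was -0.02, 0.06 and 0.01 at these ages. A test of whether the genotype difference changes with age called no gene of the set (limma F-test, 0 of 24, against 0.00836% of all genes). In that test 3 had an unadjusted p under 0.05, as had 2044 of the 11968 genes tested. The lowest adjusted p there were 0.109 for Lrp6, 0.14 for Lrp5 and 0.228 for Wnt9b, so the differences at 5 weeks were not shown to differ from those at the other ages.

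More genes of the set were called between ages than between genotypes. From 2 to 44 weeks 8 of 24 changed in KI podocytes (30.2% of all genes), 3 higher (14.3%) and 5 lower (15.9%). In WT podocytes 7 of 24 changed (31.6% of all genes), 2 higher (13.6%) and 5 lower (18%). Of these genes, 6 changed in the same direction in both genotypes, which share no arrays: Wnt5a, Sfrp1, Axin2 and Dkk3 fell, and Wif1 and Lrp6 rose. With the tubule marker mean as a covariate the calls of Dkk3, Lrp6 and Axin2 were lost in both genotypes. The median difference of the 24 was -0.03 in KI and -0.14 in WT podocytes, against -0.01 and -0.03 over all genes. The shared genes were 75% of the KI calls and 85.7% of the WT calls, where for all genes 73.9% and 70.7% were shared. Between 2 and 5 weeks 3 genes changed in KI podocytes (13.7% of all genes), 0 higher (5.4%) and 3 lower (8.29%). In WT podocytes 8 changed (33.9%), 2 higher (12.2%) and 6 lower (21.7%), and Wnt5a and Sfrp1 fell in both. Between 5 and 44 weeks 4 changed in KI podocytes (16.8%), 3 higher (8.11%) and 1 lower (8.64%). In WT podocytes 4 changed (20.1%), 3 higher (11.3%) and 1 lower (8.85%), and the shared gene was Lrp6, which rose.

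**Figure D2:**
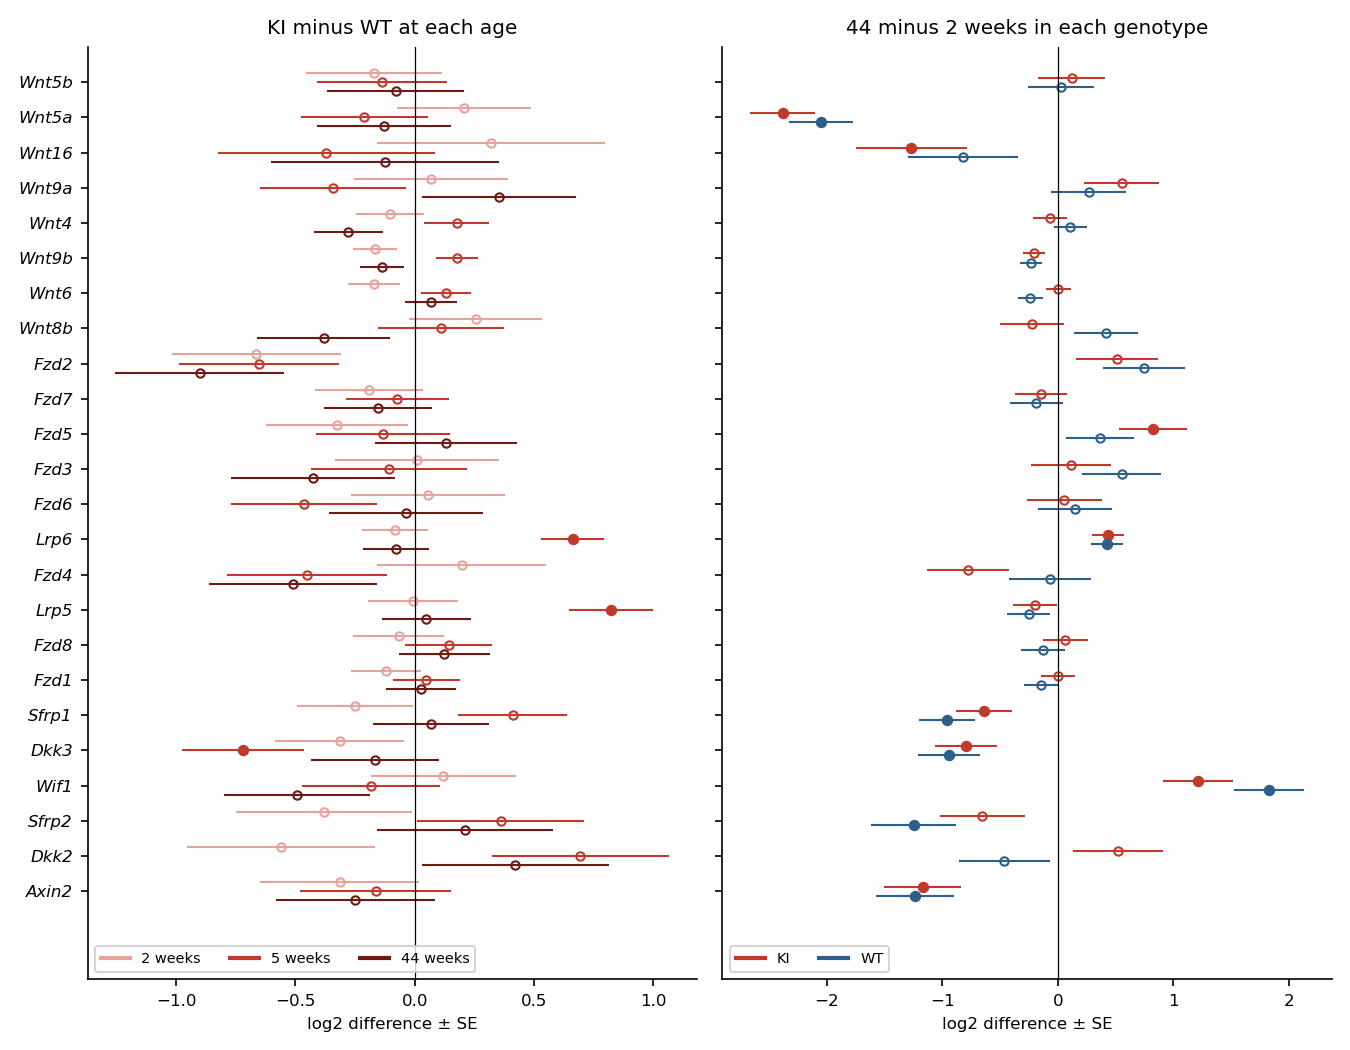
Log2 differences (horizontal axis, points, with limma's SE as lines) of the 24 genes tested; filled points passed at an adjusted p under 0.05. Left, KI minus WT at 3 ages, with Lrp5, Lrp6 and Dkk3 filled at 5 weeks; right, 44 minus 2 weeks in KI and WT podocytes, with Wnt5a lowest and Wif1 highest in both.

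Over all comparisons 17 of the 24 genes were called at least once, in 38 calls. The share of all genes called at least once was not computed, so this count is not read as high or low. Wnt5b, Wnt6, Wnt8b, Fzd1, Fzd3, Fzd7 and Fzd8 were called in none. With each array left out in turn, 20 of the 38 calls were made in all 25 fits, and 13 of these also under the other settings in which the gene was tested: Wnt5a, Sfrp1, Lrp5 and Lrp6 in WT at 5 minus 2 weeks, Wnt5a and Sfrp1 in KI at 5 minus 2 weeks, Lrp6 in WT and Wnt9b in KI at 44 minus 5 weeks, Wnt5a, Wif1 and Sfrp1 in WT and Wnt5a and Wif1 in KI at 44 minus 2 weeks. In all 13 there was no overlap between the arrays of both groups, as for 34.8% of all genes in KI and 27.6% in WT at 44 minus 2 weeks, 25.2% in KI and 16.7% in WT at 5 minus 2 weeks, and 25.8% in KI and 12.1% in WT at 44 minus 5 weeks.

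The proximal promoters of Axin2, the feedback target that fell, and Wif1, which rose, are given as the windows found among the 6 genes that changed from 2 to 44 weeks in both genotypes. That of Fzd7, which passed in no comparison, is given as an example of a window that holds one of the words searched. They are RefSeq windows of build GRCm38.p6, from 250 bases before to 50 after a transcript start, written 5′ to 3′ on the strand of the gene. The Axin2 start lies inside the gene's RefSeq record, downstream of its outer end. Capitals mark the Tcf and Lef words searched, CTTTGAA or CTTTGAT or CTTTGTA or CTTTGTT, on either strand.
Axin2, chr11:108920099-108920398, forward strand: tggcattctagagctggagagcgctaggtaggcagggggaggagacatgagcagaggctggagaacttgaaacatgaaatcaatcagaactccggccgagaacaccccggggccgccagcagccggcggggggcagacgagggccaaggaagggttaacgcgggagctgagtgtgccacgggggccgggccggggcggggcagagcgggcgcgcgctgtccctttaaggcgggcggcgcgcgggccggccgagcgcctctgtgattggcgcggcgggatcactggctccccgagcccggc
Wif1, chr10:121033754-121034053, forward strand: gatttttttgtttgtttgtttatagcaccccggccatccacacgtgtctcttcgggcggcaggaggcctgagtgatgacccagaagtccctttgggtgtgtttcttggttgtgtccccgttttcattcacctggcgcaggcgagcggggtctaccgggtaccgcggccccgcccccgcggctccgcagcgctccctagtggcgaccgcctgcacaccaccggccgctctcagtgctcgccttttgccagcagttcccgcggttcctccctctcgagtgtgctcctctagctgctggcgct
Fzd7, chr1:59481897-59482196, forward strand: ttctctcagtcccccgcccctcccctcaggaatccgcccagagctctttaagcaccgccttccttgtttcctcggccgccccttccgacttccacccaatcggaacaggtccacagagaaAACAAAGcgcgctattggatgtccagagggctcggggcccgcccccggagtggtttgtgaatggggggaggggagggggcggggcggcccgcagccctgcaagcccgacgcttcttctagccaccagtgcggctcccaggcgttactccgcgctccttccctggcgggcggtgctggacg
The Fzd7 window holds AACAAAG, the reverse complement of CTTTGTT, and the Axin2 and Wif1 windows hold none of the 4 words. RefSeq windows were found for 28 of the 41 genes, 34 windows in all, since a gene can have several starts. Of these 6 (17.6%) held a word, against 16.9% of 32851 windows of the same length over all genes. Besides Fzd7, they were windows of Dkk1 and Wnt3, 1 of 4 of Lef1, 1 of 2 of Wnt11 and 1 of 3 of Wnt5b. The other tested genes that passed in no comparison and have a window, Fzd1, Wnt6 and Wnt8b, hold none. A match is a description of letters, not a site.

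Wnt5a had the largest fall of the 24 genes at 5 minus 2 and at 44 minus 2 weeks, in KI and in WT podocytes. Its ligand acts largely without beta-catenin. At 2 weeks its probe set read 7.90, 8.11, 8.10 and 7.63 in KI podocytes, against 6.69, 8.27, 8.25 and 7.71 in WT podocytes. At 5 weeks it read 5.88, 5.67, 5.41 and 6.10 in KI podocytes, against 6.23, 5.65, 5.91, 6.63 and 5.46 in WT podocytes, and at 44 weeks 5.17, 5.50, 5.60 and 5.93 in KI podocytes, against 5.42, 5.86, 5.75 and 5.69 in WT podocytes. Apart from WT 2-week array 1 at 6.69 the 2-week arrays read 7.63 or more, and no array at 5 or 44 weeks exceeded 6.63.
The level fell between 2 and 5 weeks, with a difference of -2.17 ± 0.28 (SE, limma adjusted p = 8.52e-05) in KI podocytes and of -1.75 ± 0.27 (SE, limma adjusted p = 7.16e-05) in WT podocytes. At 44 minus 2 weeks the difference was -2.38 ± 0.28 (SE, limma adjusted p = 3.81e-06) in KI podocytes, a 5.22-fold fall, and -2.05 ± 0.28 (SE, limma adjusted p = 1.28e-05) in WT podocytes, a 4.14-fold fall. KI and WT arrays overlapped at each age, and the KI minus WT differences were 0.21 ± 0.28, -0.21 ± 0.27 and -0.13 ± 0.28 at 2, 5 and 44 weeks. The second Wnt5a probe set fell as well at 44 minus 2 weeks, at -2.19 ± 0.28 (SE, limma adjusted p = 8.99e-06) in KI and -1.31 ± 0.28 (SE, limma adjusted p = 0.00112) in WT podocytes. The genotypes lay further apart on this second probe set after 2 weeks. Its group means were 5.248 in KI and 5.878 in WT at 5 weeks, and 5.353 and 5.955 at 44 weeks. At 2 weeks they were 7.547 in KI and 7.263 in WT. In purified bulk RNA, fewer cells of a type and less RNA per cell cannot be told apart.

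Markers of stromal cells and of parietal cells moved with age beside Wnt5a, Sfrp1, Sfrp2, Dkk3 and Axin2. At 44 minus 2 weeks 6 of the 8 fibroblast markers tested fell in KI podocytes and 6 of 8 in WT podocytes, with medians of -1.24 and -1.51. The mean of the 9 measured ran from 7.08 to 7.52 on KI and from 7.31 to 7.94 on WT arrays at 2 weeks, and from 5.42 to 5.99 on KI and from 5.36 to 5.93 on WT arrays at 44 weeks. Of the 10 mesangial and smooth muscle markers 8 fell and 1 rose in each genotype. Of the 6 parietal cell markers 3 fell in KI and 5 in WT podocytes, with medians of -0.80 and -1.01. Over all genes tested 15.9% fell and 14.3% rose in KI podocytes, and 18% fell and 13.6% rose in WT podocytes. No marker was at 0, since the values are log2 intensities, and the part of these markers in the fall of the 5 genes was not tested.

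Wnt5b, the paralogue of Wnt5a and the brightest ligand, did not pass in any comparison. At 2 weeks it read 7.52, 7.60, 7.49 and 7.60 in KI podocytes, against 8.57, 7.60, 7.65 and 7.07 in WT podocytes. At 44 weeks it read 7.67, 7.50, 7.52 and 7.99 in KI podocytes, against 7.35, 7.96, 7.65 and 8.04 in WT podocytes. The groups overlapped, with 44 minus 2 week differences of 0.12 ± 0.29 (SE, limma adjusted p = 0.787) in KI and 0.03 ± 0.29 (SE, limma adjusted p = 0.951) in WT podocytes.

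Wnt16, a ligand best known from bone and from joint tissue, was lower at 44 than at 2 weeks in KI podocytes. The 2-week arrays read 6.65, 6.29, 6.45 and 6.12 in KI podocytes, against 5.45, 6.11, 6.53 and 6.14 in WT podocytes. At 44 weeks it read 4.58, 5.41, 4.23 and 6.22 in KI podocytes, against 4.50, 6.07, 5.54 and 4.82 in WT podocytes. One KI 44-week array, at 6.22, lay among the 2-week values. The difference was -1.27 ± 0.48 (SE, limma adjusted p = 0.0489) in KI and -0.82 ± 0.48 (SE, limma adjusted p = 0.199) in WT podocytes, and the KI call ended in 16 of 25 fits that left out 1 array, with an adjusted p of up to 0.164. With the tubule covariate the KI difference was -0.61 (limma adjusted p = 0.321), and with the Y-linked covariate -0.96 (limma adjusted p = 0.142).

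Wnt9a and Wnt9b changed in opposite directions between 5 and 44 weeks in KI podocytes. Wnt9b starts nephron formation from the collecting duct, and Wnt9a is known from joint and liver development. Wnt9a read 6.27, 5.81, 6.10 and 6.55 in KI podocytes at 44 weeks, against 4.90, 4.84, 5.46 and 5.59 at 5 weeks. Wnt9b read 4.96, 4.88, 4.84 and 4.88 at 44 weeks, against 5.33, 5.30, 5.38 and 5.21 at 5 weeks. Neither pair of groups overlapped, as for 25.8% of all genes.
The 44 minus 5 week difference was 0.98 ± 0.32 (SE, limma adjusted p = 0.0409) for Wnt9a and -0.42 ± 0.09 (SE, limma adjusted p = 0.00502) for Wnt9b. The Wnt9a call ended without KI 5-week array 23, 24 or 25 or KI 44-week array 31, 33 or 34, with an adjusted p of up to 0.111, and with the mean of its probe sets the difference was 0.55 (limma adjusted p = 0.0352). In WT podocytes the same differences were 0.28 ± 0.31 (SE, limma adjusted p = 0.536) and -0.10 ± 0.09 (SE, limma adjusted p = 0.442). WT 5-week array 7 read 7.10 for Wnt9a, above the other 24 arrays.

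Wnt4, which turns mesenchyme into epithelium in the forming nephron, rose between 5 and 44 weeks in WT podocytes. It read 5.86, 5.39, 5.46 and 5.62 at 44 weeks, against 4.91, 4.68, 5.29, 5.42 and 5.48 at 5 weeks, with overlap. The difference was 0.43 ± 0.14 (SE, limma adjusted p = 0.0322) and the call ended without WT 5-week array 6 or 7 or WT 44-week array 15 or 18, with an adjusted p of up to 0.119. With the tubule covariate it was 0.27 (limma adjusted p = 0.308). In KI podocytes it read 5.27, 5.23, 5.39 and 5.32 at 44 weeks and 5.26, 5.31, 5.39 and 5.38 at 5 weeks, a difference of -0.03 ± 0.14 (SE, limma adjusted p = 0.914). The probe sets of Wnt4 disagreed on genotype and on age. A second, tested on its own, was lower in KI podocytes at 5 weeks, at -0.75 ± 0.24 (SE, limma adjusted p = 0.0371). The one used stood there at 0.18 ± 0.14 (SE, limma adjusted p = 0.355). At 44 weeks the second had group means of 4.948 in KI and 5.68 in WT. Its WT means were 4.927 at 2 weeks and 5.527 at 5 weeks. Those of the one used were 5.474, 5.157 and 5.582 at 2, 5 and 44 weeks. The WT call at 44 minus 5 weeks was also lost with the mean of all probe sets, quantile normalisation, or arrays centred on their median. It was lost too with only the arrays compared and without WT arrays 7, 8 and 9. The other tested ligands, Wnt6 and Wnt8b, passed in no comparison; at 44 weeks the KI arrays of Wnt8b all lay below the WT arrays, at a difference of -0.38 ± 0.28 (SE, limma adjusted p = 0.908), as 2.74% of all genes did not overlap there.

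**Figure D3:**
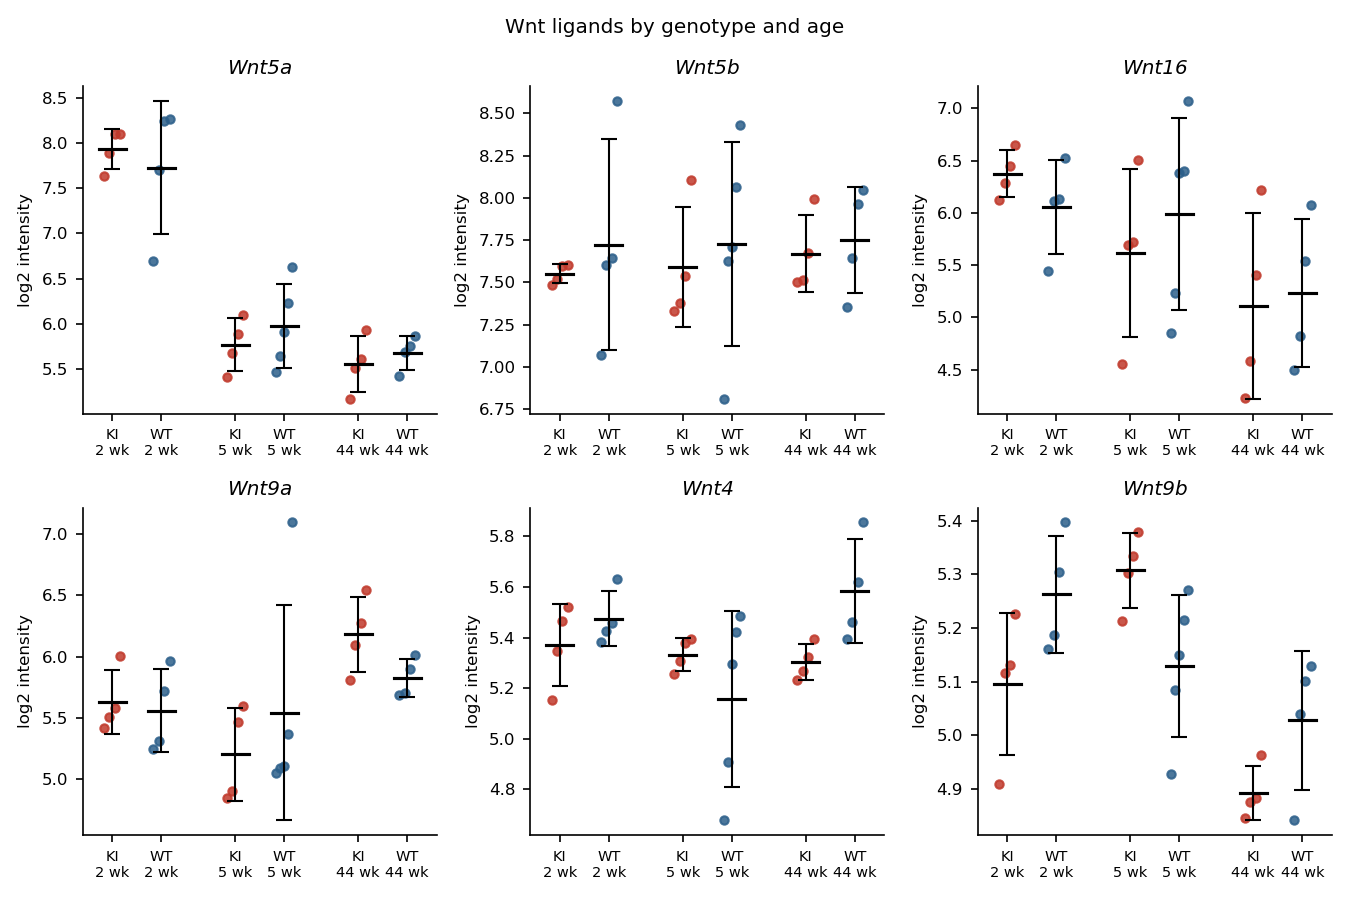
Log2 intensity (vertical axis) of 6 ligands on each array, KI red and WT blue, at 2, 5 and 44 weeks (wk); bars are the mean and SD. Wnt5a is lower at 5 and 44 weeks than at 2 weeks in both genotypes, and Wnt5b overlaps throughout.

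Among the receptors, the co-receptors Lrp5 and Lrp6 were higher in KI than in WT podocytes at 5 weeks, and the WT level at 5 weeks was below those at 2 and 44 weeks. Both pair with a Frizzled receptor to pass the signal to beta-catenin. At 2 weeks Lrp6 read 6.56, 6.45, 6.81 and 6.67 in KI podocytes, against 6.85, 6.65, 6.62 and 6.72 in WT podocytes. At 5 weeks it read 6.64, 6.31, 6.91 and 6.65 in KI podocytes, against 6.00, 5.74, 6.02, 6.24 and 5.83 in WT podocytes, and at 44 weeks 7.07, 7.12, 7.31 and 6.73 in KI podocytes, against 7.38, 7.09, 7.10 and 6.98 in WT podocytes. The 5 WT arrays at 5 weeks were the lowest of all 25, and KI and WT overlapped at the other ages.
The KI minus WT difference of Lrp6 at 5 weeks was 0.66 ± 0.13 (SE, limma adjusted p = 0.00327), a 1.58-fold rise, with groups that did not overlap (12% of all genes). It was -0.08 ± 0.14 (SE, limma adjusted p = 0.958) at 2 weeks and -0.08 ± 0.14 (SE, limma adjusted p = 0.976) at 44 weeks. With age Lrp6 in WT podocytes fell by 0.74 at 5 minus 2 weeks (limma adjusted p = 2.89e-04) and rose at 44 minus 5 weeks, by 1.17 ± 0.13 (SE, limma adjusted p = 8.34e-06).
In KI podocytes it did not pass at 5 minus 2 weeks, at 0.01 ± 0.14 (SE, limma adjusted p = 0.986), and rose at 44 minus 5 weeks, by 0.43 ± 0.14 (SE, limma adjusted p = 0.0383). At 44 minus 2 weeks it rose in both, by 0.43 ± 0.14 (SE, limma adjusted p = 0.0216) in KI and 0.43 ± 0.14 (SE, limma adjusted p = 0.0214) in WT podocytes. These last 3 calls ended in leave-one-out fits: at 44 minus 5 weeks in KI without array 23, 24, 26, 31, 32 or 33 (adjusted p of up to 0.136), at 44 minus 2 weeks in KI without 19, 20, 32 or 33 (up to 0.0844) and in WT without 2, 3 or 15 (up to 0.0731). With the tubule covariate the 44 minus 2 week difference was 0.36 (limma adjusted p = 0.0827) in KI and 0.33 (limma adjusted p = 0.145) in WT podocytes, and that at 44 minus 5 weeks in KI was 0.39 (limma adjusted p = 0.0502). Quantile normalisation put the WT difference at 5 minus 2 weeks at -0.43 (limma adjusted p = 0.0361).

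Lrp5 read 6.26, 6.36, 6.15 and 6.28 in KI podocytes, against 6.40, 6.38, 6.16 and 6.15 in WT podocytes at 2 weeks. At 5 weeks it read 6.02, 5.55, 6.21 and 5.98 in KI podocytes, against 5.19, 4.56, 5.12, 4.91 and 5.82 in WT podocytes, and at 44 weeks 6.36, 5.75, 6.04 and 6.14 in KI podocytes, against 5.85, 6.06, 6.09 and 6.08 in WT podocytes. The WT arrays at 5 weeks were low except array 10 at 5.82, which lay within the KI values.
The KI minus WT difference at 5 weeks was 0.82 ± 0.18 (SE, limma adjusted p = 0.00458), a 1.77-fold rise, against -0.01 ± 0.19 at 2 and 0.05 ± 0.19 at 44 weeks. The 5-week call was lost when only the KI and WT arrays of that age were fitted, and Lrp5 had no second probe set. In WT podocytes Lrp5 differed by -1.16 ± 0.18 (SE, limma adjusted p = 8.26e-05) at 5 minus 2 weeks and by 0.90 ± 0.18 (SE, limma adjusted p = 0.00168) at 44 minus 5 weeks. Without WT arrays 7, 8 and 9 these were -0.77 (limma adjusted p = 0.0181) and 0.52 (limma adjusted p = 0.0956), so that the second was no longer called. In KI podocytes the same differences were -0.33 ± 0.19 (SE, limma adjusted p = 0.269) and 0.13 ± 0.19 (SE, limma adjusted p = 0.677).

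At 5 weeks, beside Lrp5 and Lrp6, marker means of tubule and endothelial cells were higher in KI than in WT. The mean of the proximal tubule markers (14 measured of 17) ran from 9.61 to 10.20 on KI arrays and from 8.52 to 9.71 on WT arrays, and that of the loop and distal tubule markers (16 of 17) from 7.86 to 8.04 and from 6.67 to 7.55. The endothelial markers (14 of 14) averaged 7.15 to 7.57 on KI arrays and 5.97 to 6.97 on WT arrays. Group means of mesangial and smooth muscle markers were higher too, at 8.25 in KI and 7.48 in WT. Those of leukocyte markers were 5.52 in KI and 5.07 in WT, and those of fibroblast markers 6.83 and 6.47. The podocyte markers went the other way, with group means of 11.28 in KI and 11.41 in WT. So did the parietal cell markers, at 8.45 in KI and 8.53 in WT. The excess of proximal tubule and endothelial markers in KI was not particular to 5 weeks. Proximal tubule group means were 9.46 in KI and 8.88 in WT at 2 weeks, and 10.30 and 9.73 at 44 weeks. Endothelial group means were 7.16 in KI and 6.71 in WT at 2 weeks, and 7.30 and 6.92 at 44 weeks. With the tubule marker mean as a covariate, the KI minus WT difference at 5 weeks was 0.54 (limma adjusted p = 0.14) for Lrp6, 0.70 (limma adjusted p = 0.172) for Lrp5 and -0.28 (limma adjusted p = 0.747) for Dkk3. Without WT 5-week arrays 7, 8 and 9, with smooth muscle marker means of 6.87, 7.14 and 7.32 against 8.13 and 7.95 on arrays 6 and 10, it was 0.71 (limma adjusted p = 0.145) for Lrp6, 0.44 (limma adjusted p = 0.338) for Lrp5 and -0.43 (limma adjusted p = 0.602) for Dkk3. None of the 6 values passed. Few of all genes passed at 5 weeks in either setting, against 2638 of 11968 in the main fit. The lost calls are therefore not particular to these genes. In the main fit the differences were 0.66 for Lrp6, 0.82 for Lrp5 and -0.72 for Dkk3. That of Lrp6 stayed near this size in both settings. That of Lrp5 shrank mainly without the WT arrays, and that of Dkk3 shrank in both. The cause of the differences was not tested.

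Fzd2 was lower in KI than in WT podocytes when the ages were averaged. It is a Frizzled receptor that Wnt5a can bind. At 2 weeks it read 8.49, 8.70, 8.25 and 9.07 in KI podocytes, against 9.86, 10.01, 8.79 and 8.51 in WT podocytes. The 5-week arrays read 9.58, 9.17, 10.06 and 9.33 in KI podocytes, against 9.57, 10.20, 10.53, 10.65 and 9.97 in WT podocytes, and the 44-week arrays 8.90, 8.47, 9.48 and 9.71 in KI podocytes, against 9.87, 9.24, 10.49 and 10.56 in WT podocytes. KI and WT arrays overlapped at each age.
The average difference was -0.74 ± 0.20 (SE, limma adjusted p = 0.0376), a 1.67-fold fall, made up of -0.66 ± 0.35 at 2, -0.65 ± 0.34 at 5 and -0.90 ± 0.35 at 44 weeks, none of which passed alone (limma adjusted p = 0.893, 0.161 and 0.725). The call ended in 16 of 25 leave-one-out fits, with an adjusted p of up to 0.0708. The other probe sets of Fzd2, tested on their own, averaged -0.12 ± 0.13 (SE, limma adjusted p = 0.613) and -0.27 ± 0.13 (SE, limma adjusted p = 0.229). With the tubule covariate the average difference was -0.65 (limma adjusted p = 0.991).
With age Fzd2 rose at 5 minus 2 weeks in WT podocytes, by 0.89 ± 0.34 (SE, limma adjusted p = 0.0441), a call that ended without array 3, 5, 7, 8, 9, 19, 20 or 23 (adjusted p of up to 0.185). Without WT arrays 7, 8 and 9 it was 0.48 (limma adjusted p = 0.523). In KI podocytes the arrays of the 2 ages did not overlap (25.2% of all genes), at a difference of 0.91 ± 0.35 (SE, limma adjusted p = 0.0942). The WT call was also lost with the mean of all Fzd2 probe sets. The probe sets not used had WT group means of 6.841 and 6.806 at 2 weeks, and of 6.876 and 7.024 at 5 weeks.

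Of the other Frizzled receptors, Fzd4, Fzd5 and Fzd6 each passed once, in KI podocytes with age. Fzd4, the receptor of norrin in vessels, read 5.91, 5.96, 5.67 and 6.72 at 5 weeks, against 6.73, 7.41, 7.12 and 7.24 at 2 weeks in KI podocytes, a difference of -1.06 ± 0.35 (SE, limma adjusted p = 0.0489). Fzd6, known for tissue polarity, read 6.64, 6.82, 7.06 and 7.71 at 44 weeks, against 6.11, 6.04, 5.95 and 6.34 at 5 weeks, a difference of 0.95 ± 0.32 (SE, limma adjusted p = 0.0474). Fzd5 read 7.12, 7.58, 7.79 and 7.65 at 44 weeks, against 7.01, 6.95, 6.37 and 6.52 at 2 weeks, a difference of 0.83 ± 0.30 (SE, limma adjusted p = 0.0393). In each of the 3 the arrays of both ages did not overlap. In KI podocytes this held for 25.2% of all genes at 5 minus 2, 25.8% at 44 minus 5 and 34.8% at 44 minus 2 weeks.
In WT podocytes the same differences were -0.41 ± 0.34 (SE, limma adjusted p = 0.365) for Fzd4, 0.52 ± 0.31 (SE, limma adjusted p = 0.239) for Fzd6 and 0.37 ± 0.30 (SE, limma adjusted p = 0.367) for Fzd5; whether KI and WT differ in these age differences was not called by the interaction test. Single arrays decided the calls: that of Fzd4 ended in 21 of 25 leave-one-out fits (adjusted p of up to 0.138), that of Fzd6 in 15 (up to 0.151), and that of Fzd5 without array 21, 22, 32, 33 or 34 (up to 0.117). With the mean of a gene's probe sets the 3 KI differences were -0.57 (limma adjusted p = 0.0713), 0.54 (limma adjusted p = 0.0603) and 0.42 (limma adjusted p = 0.0726). At 44 weeks the KI arrays of Fzd4 all lay below the WT arrays, with 6.41, 6.47, 6.39 and 6.13 in KI against 6.59, 6.88, 6.73 and 7.23 in WT podocytes. The difference was -0.51 ± 0.35 (SE, limma adjusted p = 0.897), and 2.74% of all genes did not overlap there.

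Fzd7, the second brightest receptor, passed in no comparison. It read 7.79, 8.56, 7.88 and 7.92 in KI podocytes, against 8.03, 8.87, 8.10 and 7.94 in WT podocytes at 2 weeks. At 44 weeks it read 7.64, 8.09, 7.93 and 7.92 in KI podocytes, against 8.38, 7.61, 8.15 and 8.05 in WT podocytes. Its 44 minus 2 week difference was -0.15 ± 0.23 (SE, limma adjusted p = 0.66) in KI and -0.18 ± 0.23 (SE, limma adjusted p = 0.566) in WT podocytes. Fzd1, Fzd3 and Fzd8 did not pass either.

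**Figure D4:**
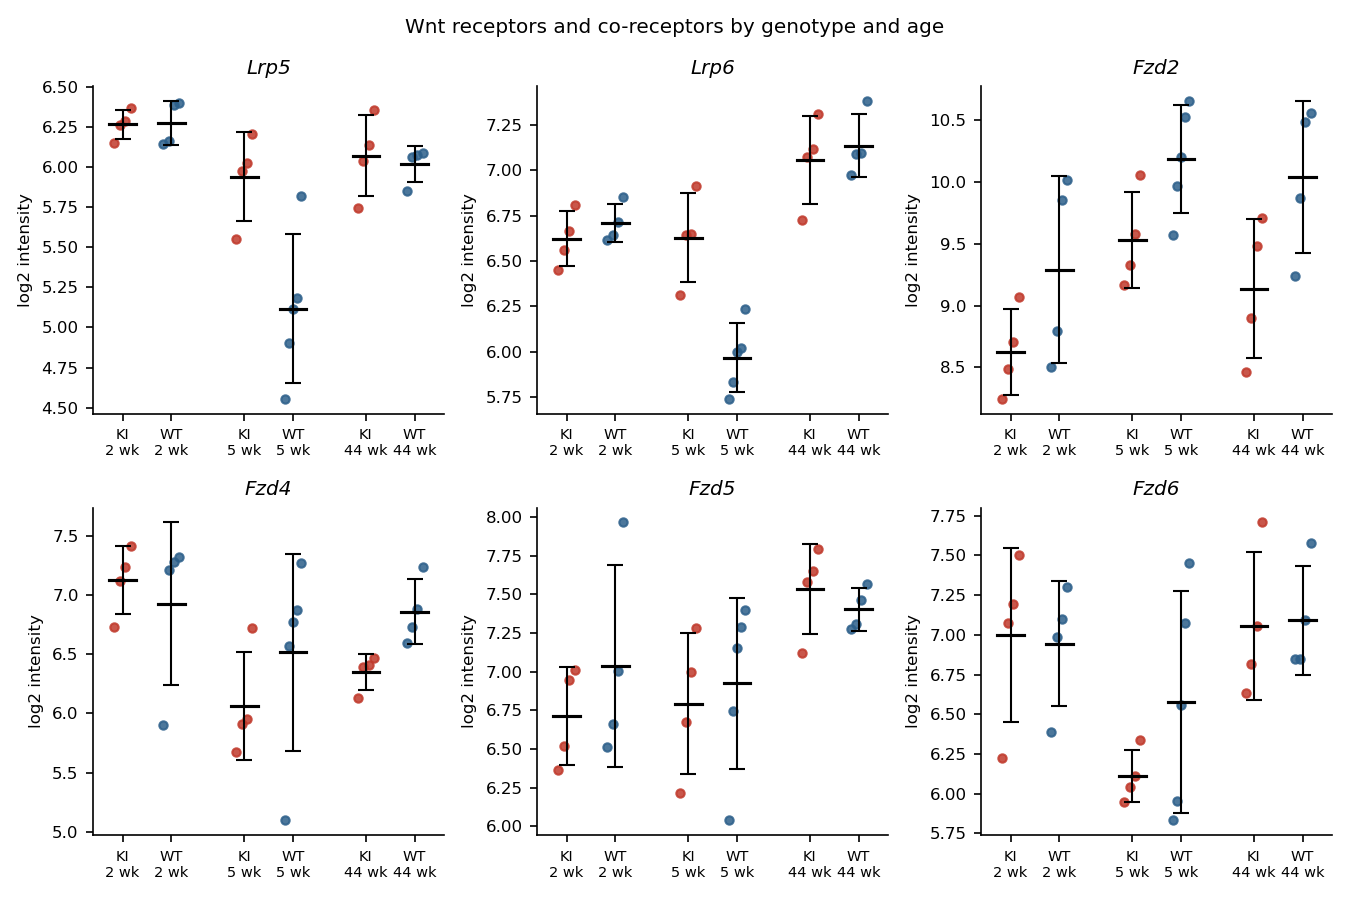
Log2 intensity (vertical axis) of 2 co-receptors and 4 Frizzled receptors on each array, KI red and WT blue, at 2, 5 and 44 weeks (wk); bars are the mean and SD. The WT 5-week arrays of Lrp6 are the lowest of all, and KI lies below WT on average for Fzd2 at each age.

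Among the secreted antagonists, Sfrp1 and Dkk3 fell with age and Wif1 rose. Sfrp1 binds Wnt proteins and keeps them from the receptor. At 2 weeks it read 9.90, 10.12, 9.72 and 10.04 in KI podocytes, against 10.35, 10.95, 9.75 and 9.73 in WT podocytes. At 5 weeks it read 8.82, 8.93, 9.34 and 9.07 in KI podocytes, against 9.21, 8.24, 8.39, 8.39 and 8.92 in WT podocytes, and at 44 weeks 9.44, 9.07, 9.26 and 9.46 in KI podocytes, against 9.47, 8.70, 9.33 and 9.46 in WT podocytes. All 2-week arrays lay above all later ones in each genotype, and the 3 lowest values were of WT arrays 7, 8 and 9 at 5 weeks.
At 5 minus 2 weeks Sfrp1 differed by -0.90 ± 0.24 (SE, limma adjusted p = 0.0159) in KI and by -1.56 ± 0.23 (SE, limma adjusted p = 5.99e-05) in WT podocytes. At 44 minus 2 weeks the differences were -0.64 ± 0.24 (SE, limma adjusted p = 0.0492) in KI and -0.96 ± 0.24 (SE, limma adjusted p = 0.00435) in WT podocytes; the KI call ended in 18 of 25 leave-one-out fits, with an adjusted p of up to 0.125. KI minus WT did not pass at any age, at -0.25 ± 0.24, 0.41 ± 0.23 and 0.07 ± 0.24.

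Wif1, which binds Wnt proteins outside the cell, rose between 2 and 44 weeks in both genotypes. At 2 weeks it read 6.37, 6.83, 5.74 and 6.04 in KI podocytes, against 6.80, 5.32, 6.16 and 6.22 in WT podocytes. The 5-week arrays read 6.43, 7.46, 7.28 and 6.80 in KI podocytes, against 7.24, 7.03, 6.76, 7.39 and 7.46 in WT podocytes, and the 44-week arrays 7.65, 7.19, 7.14 and 7.86 in KI podocytes, against 7.69, 8.68, 7.97 and 7.48 in WT podocytes. In each genotype the 44-week arrays all lay above the 2-week arrays, where 34.8% of all genes in KI and 27.6% in WT did not overlap.
The 44 minus 2 week difference was 1.22 ± 0.30 (SE, limma adjusted p = 0.00458) in KI, a 2.32-fold rise, and 1.83 ± 0.30 (SE, limma adjusted p = 1.13e-04) in WT podocytes, a 3.56-fold rise. By 5 weeks the rise had passed in WT podocytes, at 1.05 ± 0.29 (SE, limma adjusted p = 0.00784), and stood at 0.75 ± 0.30 (SE, limma adjusted p = 0.11) in KI podocytes. Without WT arrays 7, 8 and 9 the WT difference was 1.22 (limma adjusted p = 0.0548). The podocyte markers, at 11.27 to 11.44 on KI and 11.24 to 11.63 on WT arrays at 44 weeks, were also above their 2-week means of 10.78 to 10.93 on KI and 10.88 to 11.26 on WT arrays, with overlap in WT, and their part in the rise was not tested.

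Dkk3, a Dkk family member that is not known as a blocker of Lrp5 and Lrp6, was lower in KI podocytes at 5 weeks and fell with age. At 2 weeks it read 9.07, 9.42, 9.07 and 8.89 in KI podocytes, against 9.95, 9.55, 9.08 and 9.12 in WT podocytes. Its 5-week values were 8.62, 8.15, 8.69 and 8.96 in KI podocytes, against 9.49, 9.14, 9.61, 9.82 and 8.59 in WT podocytes, and its 44-week values 8.34, 8.25, 7.80 and 8.88 in KI podocytes, against 7.92, 8.78, 8.83 and 8.41 in WT podocytes. Array 10, at 8.59, was the WT array that lay within the KI values at 5 weeks.
The KI minus WT difference at 5 weeks was -0.72 ± 0.26 (SE, limma adjusted p = 0.0472), and it ended in 15 of 25 leave-one-out fits, with an adjusted p of up to 0.149. A second probe set stood at -0.64 ± 0.26 (SE, limma adjusted p = 0.0839) there. At 44 minus 2 weeks Dkk3 differed by -0.79 ± 0.27 (SE, limma adjusted p = 0.0296) in KI and by -0.94 ± 0.27 (SE, limma adjusted p = 0.0104) in WT podocytes. The KI call ended without array 19, 20, 21, 31, 32 or 33 (adjusted p of up to 0.11). With the tubule covariate these were -0.50 (limma adjusted p = 0.174) in KI and -0.55 (limma adjusted p = 0.17) in WT podocytes, and with the Y-linked covariate the KI difference was -0.71 (limma adjusted p = 0.0676).
In WT podocytes Dkk3 also fell at 44 minus 5 weeks, at -0.85 ± 0.26 (SE, limma adjusted p = 0.0244), a call that ended without array 8, 9, 15 or 18 (up to 0.0982). It was -0.46 (limma adjusted p = 0.329) with the tubule covariate and -0.55 (limma adjusted p = 0.319) without WT arrays 7, 8 and 9.

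Sfrp2, a second soluble Frizzled-related protein, read 6.40, 6.13, 6.37 and 5.92 in WT podocytes at 44 weeks, against 8.06, 8.05, 6.12 and 7.58 at 2 weeks. The difference of -1.25 ± 0.37 (SE, limma adjusted p = 0.0126) was called, with array 3 of 2 weeks among the 44-week values, and it missed the threshold without array 2 (adjusted p = 0.0512), and with the Y-linked covariate it was -0.97 (limma adjusted p = 0.0678). In KI podocytes the difference was -0.65 ± 0.37 (SE, limma adjusted p = 0.189). Dkk2, an antagonist of Lrp5 and Lrp6, read 5.93, 3.91, 4.13, 4.84 and 5.08 in WT podocytes at 5 weeks, against 6.26, 5.39, 5.25 and 6.07 at 2 weeks, with overlap. Its difference was -0.96 ± 0.37 (SE, limma adjusted p = 0.0499) and the call ended in 19 of 25 leave-one-out fits (up to 0.143) and stood at -0.24 (limma adjusted p = 0.774) without WT arrays 7, 8 and 9, against 0.29 ± 0.39 (SE, limma adjusted p = 0.675) in KI podocytes.

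Axin2, a negative feedback target that is widely used as a readout of beta-catenin activity, fell with age in both genotypes. Its 2-week values were 6.75, 6.54, 6.49 and 6.17 in KI podocytes, against 7.01, 7.52, 6.11 and 6.56 in WT podocytes. Its 5-week values were 5.65, 5.70, 5.58 and 6.21 in KI podocytes, against 6.14, 6.39, 6.50, 6.22 and 4.49 in WT podocytes, and its 44-week values 5.69, 5.27, 4.94 and 5.36 in KI podocytes, against 5.30, 5.58, 5.44 and 5.93 in WT podocytes. The 44-week arrays lay below the 2-week arrays in each genotype, where 34.8% of all genes in KI and 27.6% in WT did not overlap.
The 44 minus 2 week difference was -1.17 ± 0.33 (SE, limma adjusted p = 0.011) in KI, a 2.25-fold fall, and -1.24 ± 0.33 (SE, limma adjusted p = 0.00706) in WT podocytes, a 2.36-fold fall. With the tubule covariate these were -0.91 (limma adjusted p = 0.0598) in KI and -0.89 (limma adjusted p = 0.0909) in WT podocytes, and with the mean of both probe sets -0.68 (limma adjusted p = 0.00774) and -0.72 (limma adjusted p = 0.00486). At 5 minus 2 weeks it was -0.70 ± 0.33 (SE, limma adjusted p = 0.175) in KI and -0.85 ± 0.32 (SE, limma adjusted p = 0.0414) in WT podocytes, and the WT call ended without array 1, 2, 5 or 10 (up to 0.166). It was -0.49 without array 10 and -1.49 (limma adjusted p = 0.02) without arrays 7, 8 and 9. KI minus WT did not pass at any age. A second, dimmer Axin2 probe set, with a mean of 4.71, was not called in any comparison.

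**Figure D5:**
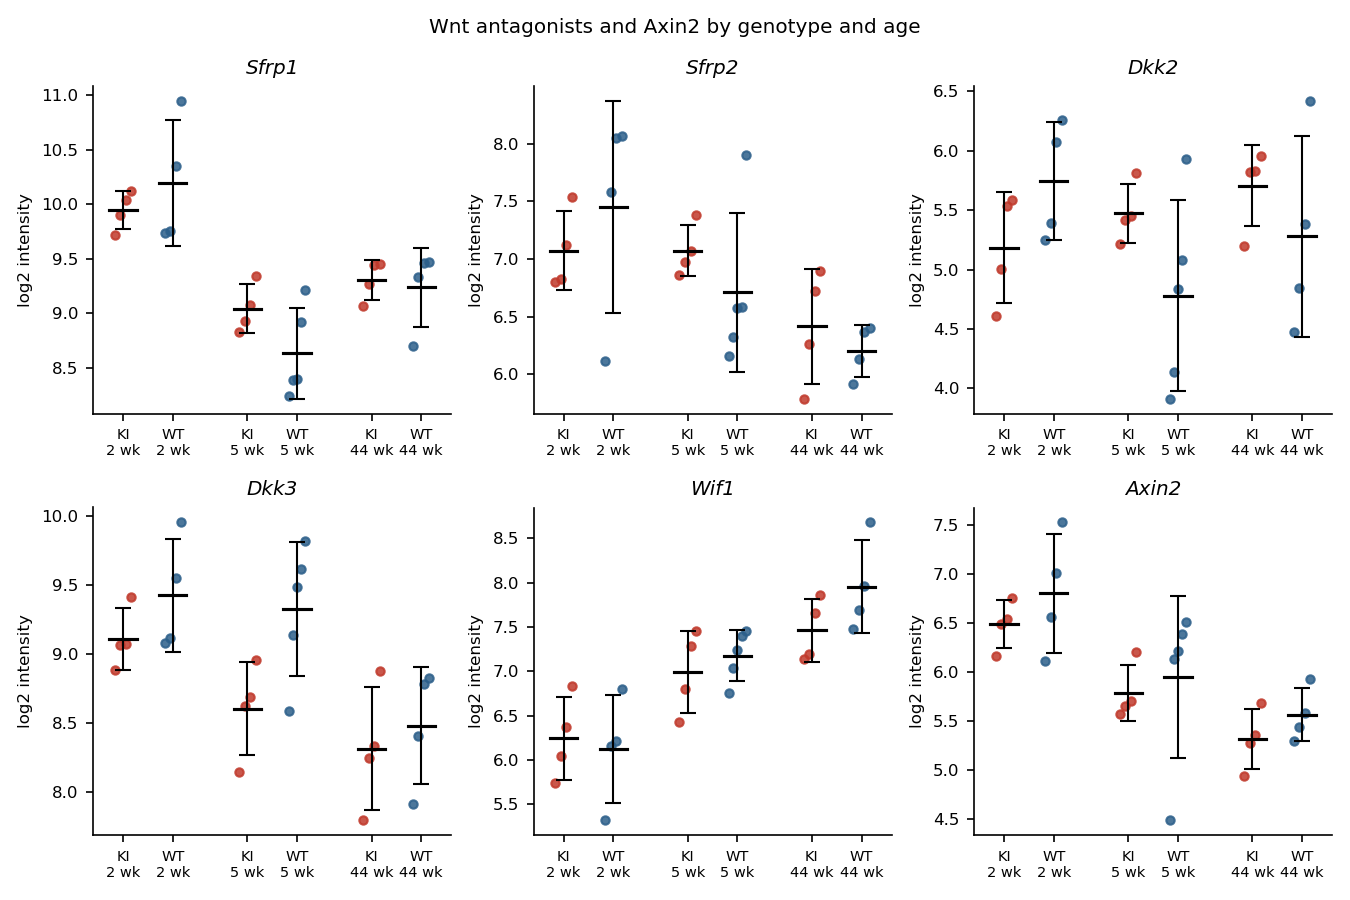
Log2 intensity (vertical axis) of 5 secreted antagonists and Axin2 on each array, KI red and WT blue, at 2, 5 and 44 weeks (wk); bars are the mean and SD. Sfrp1 and Axin2 are lower and Wif1 is higher at 44 than at 2 weeks in both genotypes.

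Of the other genes of the pathway 77 were listed and 58 tested, and no test set their counts against those of all genes. At 44 minus 2 weeks 1 rose and 13 fell in KI podocytes, when 14.3% and 15.9% of all genes did, and 6 rose and 15 fell in WT podocytes, when 13.6% and 18% did. Their median difference was -0.17 in KI and -0.33 in WT podocytes, against -0.01 and -0.03 over all genes. Apcdd1, a membrane protein that inhibits Wnt signalling, differed by -2.68 ± 0.32 (SE, limma adjusted p = 4.03e-06) in KI and by -3.24 ± 0.32 (SE, limma adjusted p = 3.37e-07) in WT podocytes. In KI podocytes Apc, a scaffold of the complex that destroys beta-catenin, stood at 0.79 ± 0.15 (SE, limma adjusted p = 5.87e-04), the glypican Gpc4 at -1.02 ± 0.22 (SE, limma adjusted p = 0.00129) and Snai2 at -1.20 ± 0.29 (SE, limma adjusted p = 0.00351). In WT podocytes Dvl2, which relays the signal from Frizzled, stood at -1.23 ± 0.20 (SE, limma adjusted p = 8.10e-05), Wls, which carries Wnt proteins to the cell surface, at 0.55 ± 0.09 (SE, limma adjusted p = 8.88e-05), and the polarity gene Vangl2 at -1.08 ± 0.20 (SE, limma adjusted p = 2.90e-04).

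At 5 minus 2 weeks 0 of the 58 rose and 5 fell in KI podocytes, when 5.4% and 8.29% of all genes did. In WT podocytes 6 rose and 15 fell, when 12.2% and 21.7% of all genes did. Apcdd1 had the smallest p in both, at -2.18 ± 0.32 (SE, limma adjusted p = 1.88e-04) in KI and -2.45 ± 0.30 (SE, limma adjusted p = 1.25e-05) in WT podocytes. At 44 minus 5 weeks 2 rose and 4 fell in KI podocytes, when 8.11% and 8.64% of all genes did, and 3 rose and 6 fell in WT podocytes, when 11.3% and 8.85% did. Wls rose in both, by 0.44 ± 0.09 (SE, limma adjusted p = 0.00274) in KI and 0.51 ± 0.08 (SE, limma adjusted p = 3.88e-04) in WT podocytes, and the nuclear repressor Tcf7l1 stood at -0.80 ± 0.21 (SE, limma adjusted p = 0.012) in KI and -0.76 ± 0.20 (SE, limma adjusted p = 0.0105) in WT podocytes.

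Between KI and WT podocytes none of the 58 passed at 2 weeks or at 44 weeks (limma). At these ages 4 and 4 had an unadjusted p under 0.05, as had 613 and 762 of the 11968 genes tested. At 5 weeks 5 were higher and 6 lower in KI podocytes, 11 of 58 in all, when 14.3% of all genes were higher, 7.75% lower and 22% called. The polarity gene Scrib stood at 0.85 ± 0.21 (SE, limma adjusted p = 0.00976), the corepressor gene Tle4 at -0.66 ± 0.17 (SE, limma adjusted p = 0.0131), the beta-catenin antagonist Cby1 at 0.70 ± 0.19 (SE, limma adjusted p = 0.0133) and the beta-catenin cofactor Bcl9 at -0.70 ± 0.21 (SE, limma adjusted p = 0.0217). In the average over ages, in which 5.32% of all genes passed, the receptor gene Lrp4 was higher, at 0.72 ± 0.18 (SE, limma adjusted p = 0.0308), as was Celsr1, at 0.73 ± 0.21 (SE, limma adjusted p = 0.0417), and Bcl9l was lower, at -0.28 ± 0.08 (SE, limma adjusted p = 0.0467).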

How the data were processed

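Polysomal RNA was amplified in 1 round with NuGEN WT-Ovation and labelled with the Encore biotin module, per the labels' protocols. The authors deposited 1 log2 value per probe set and array, for 45141 probe sets; their range, up to 13.6, gives the base. How the authors summarised and normalised them is not stated in the labels, and the array medians differed by at most 0.17. Gene symbols came from the platform's annotation: 28898 had 1 symbol, 551 several, and 15692 were unnamed here. The brightest probe set stood for each of 17097 genes. Groups follow the sample titles.

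The tests used limma 3.58.1 under R 4.3.3, with lmFit and eBayes on 6 group means over 25 arrays and 19 residual degrees of freedom, without the 30% of genes with the lowest mean (limit 4.60). Calls needed an adjusted p (Benjamini-Hochberg) under 0.05 over the 11968 genes tested. On data simulated for the same 11968 genes with 200 changed by 2-fold, 84% were recovered for KI minus WT at 5 weeks and 75.5% at 2 weeks. The lowest share of the comparisons simulated was 66%, for KI at 5 minus 2 weeks. Noise was drawn for each gene on its own, so shifts that many genes of an array share were not simulated. Marker and pathway lists, and the genes described, were chosen with earlier results of these data known. The genes with values on each array are those called in any comparison and the 3 brightest of each role; of the other pathway genes up to 4 per comparison are named, by p. Alternatives were other normalisations, filters, probe set rules, arrays and covariates. Testing each probe set on its own was chosen after seeing the data. Promoters are RefSeq windows of GRCm38.p6, and those on chromosome 18 are not reported.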

Additional observations from a re-analysis of the deposited data

Results flagged for a closer look

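In 24 genes and 6 groups, 144 combinations in all, 8 arrays stood apart from the rest of their group by more than Dixon's limit, and chance gives about 1 in 20. Among WT 5-week arrays, array 6 was high for Sfrp2 (7.90), array 7 was high for Wnt9a (7.10) and array 10 was low for Axin2 (4.49). Among KI 5-week arrays, array 25 was high for Wnt8b (5.68). At 2 weeks KI array 20 (8.56) and WT array 2 (8.87) were both high for Fzd7, and WT array 1 was low for Fzd4 (5.90). WT 44-week array 15 was low for Lrp5 (5.85), although its gap to the next array was 0.21. No cause of these values was tested.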

How the results depend on the processing

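Counts are of genes of the set called per comparison, and the cause of a change was not tested unless fewer genes or arrays entered. No value of the 38 calls turned its sign; 171 of 950 leave-one-out values and 76 of 364 other values lost the call. With the dimmest 50% of genes left out, which leaves 12 of the set, WT at 5 minus 2 weeks had 4, WT at 44 minus 5 had 2, KI at 44 minus 5 had 2 and KI at 44 minus 2 had 5. Quantile normalisation gave KI at 44 minus 5 weeks 2, and the mean of all probe sets gave the KI minus WT average 0. With only the arrays compared, KI minus WT at 5 weeks had 1, WT at 5 minus 2 had 5, WT at 44 minus 5 had 2 and KI at 5 minus 2 had 6. Without WT arrays 7, 8 and 9, KI minus WT had 0 at 5 weeks (1 of all genes) and 0 in the average, and WT at 44 minus 5 had 2. The tubule covariate gave KI minus WT 0 at 5 weeks (13 of all genes) and 0 in the average, WT at 44 minus 5 weeks 2 and KI at 44 minus 2 weeks 4. The Y-linked covariate, which differs between groups (high on 1 of 4 KI and 4 of 4 WT arrays at 2 weeks), lost 10 calls and the tubule covariate 15; the Y-linked one gave WT at 5 minus 2 weeks 5 and KI at 44 minus 2 weeks 4. Leaving out 1 array gave 0 to 0 for KI minus WT at 2 weeks, 2 to 4 at 5 weeks, 0 to 0 at 44 weeks and 0 to 3 in the average. It gave WT 5 to 10 at 5 minus 2, 2 to 7 at 44 minus 5 and 6 to 8 at 44 minus 2 weeks, and KI 2 to 4, 1 to 5 and 3 to 9 at the same ages, and the interaction 0 to 2. No paired analysis was made. The replicate numbers run on from group to group, so they do not show whether any KI and WT arrays were paired. Dim probe sets limit what could be tested, and 4 or 5 arrays per group limit the precision.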
